A study of Mus musculus with 2 samples.

Results

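A set of 10 genes that encode the parts of cartilage matrix other than collagen were followed through foetal mouse femoral bone marrow: Acan, Hapln1, Matn1, Matn2, Matn3, Matn4, Ucma, Chad, Scrg1 and Mgp. They were chosen by name, with their high levels in the cartilage cells of these same libraries already known, so their place in those cells is described here and not tested. All 10 of them had transcripts, out of 22652 genes listed in the 2 count files.

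Cartilage matrix is a network of collagen fibrils filled with aggrecan, a very large proteoglycan whose sulphated sugar chains hold water and give cartilage its stiffness. Link protein fixes aggrecan to hyaluronan, matrilins join aggrecan and collagen fibrils to one another, and vitamin K-dependent Gla proteins bind mineral and are known for keeping soft tissue free of it. In a growing long bone the cells that make this matrix lie in zones, from resting cells near the joint through columns of flat, dividing cells to large hypertrophic cells that border the marrow.

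The study asked how foetal marrow differs from adult marrow and what arteries contribute to it, and the libraries used here hold single cells of the E18.5 femur (shortly before birth) read on the BD Rhapsody microwell platform. There was 1 wild-type library and 1 Bmx-CreER Wls library, both of strain C57BL/6, and both were made after bone was crushed, digested with collagenase and depleted of committed blood cells. In the second library a tamoxifen-dependent Cre, driven by the promoter of Bmx in arterial endothelial cells, was used to delete Wls, whose product is needed for the release of Wnt ligands. The number of embryos behind each library and the tamoxifen treatment of the wild-type library are not given in the sources used here.

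With 1 library in each group no test between groups was possible, no p-value is given, and any difference between genotypes cannot be told apart from a difference between the 2 preparations. Levels are given as UMIs (unique molecular identifiers, each standing for 1 captured transcript) per 1000000 UMIs of the same group of cells, written CPM, and the intervals are 95% limits that cover counting error only. The files held 5998 and 6825 barcodes in the wild-type and Bmx-CreER Wls libraries, with 22708005 and 24704991 UMIs. After removal of cells with few genes or many mitochondrial reads, 5736 and 6620 cells remained, with medians of 3128 and 3067 UMIs, and 48 of the remaining barcodes occurred in both libraries. Wls itself was counted by 3′ tags that may lie outside the deleted part. It gave 10 UMIs in 76 wild-type arterial endothelial-like cells and 3 UMIs in 67 such cells of the other library. The ratio was 0.264 (0.0466 to 1.02), so the deletion was not resolved at this depth. Wls was lower outside the arterial class too, at 0.594 (0.393 to 0.886) in other endothelial-like cells. The ratio was 0.741 (0.657 to 0.835) in stromal (BMSC-like) and 0.904 (0.826 to 0.989) in chondrocyte-like cells.

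Cells were clustered without the 10 genes and named from collagen, SOX and other marker genes. Chondrocyte-like cells made up 2449 wild-type cells (42.7%) and 3965 Bmx-CreER Wls cells (59.9%), and their 6 naming markers (Sox9, Col2a1, Col9a1, Col9a2, Col9a3 and Col11a2) were all detected. They fell into 10 groups, called zones below and named by a leading gene. Among fixed marker lists, the Prg4-high (score 1.85), Pcp4l1-high (1.99) and Nr4a1-high (1.19) zones scored highest for joint surface cells. The Sfrp5-high zone scored highest for reserve cells and the Epyc-high zone, with a low score, for columnar cells. The Maf-high (2.34) and Hspa1a-high (2.31) zones scored highest for prehypertrophic cells. The zone called hypertrophic was led by Col10a1, Alpl and Ihh. It scored 5.07 for hypertrophic and 5.02 for prehypertrophic cells, so its name does not set these apart. The other zones were cycling and Col14a1-high, which scored below 0 for every list. Heat-shock genes were among the leading genes of the Hspa1a-high zone, and immediate-early genes led the Nr4a1-high zone. Of the wild-type and Bmx-CreER Wls chondrocyte-like cells, 8.98% and 17.7% were Prg4-high and 13.9% and 9.03% were hypertrophic, so the 2 libraries differed in their mixture of zones. Hypertrophic cells were the deepest, with a median of 6815.5 UMIs against 2011.5 in Col14a1-high cells.

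Promoters are shown for genes that were highest in different zones below: Matn1 (Epyc-high), Ucma (Col14a1-high) and Chad (hypertrophic). Each is the 250 bases before the RefSeq transcript start on the forward strand of GRCm38, at chr4:130944135-130944384, chr2:4975872-4976121 and chr11:94564797-94565046, in lower case with any TATAAA on the coding strand in capitals.
Matn1: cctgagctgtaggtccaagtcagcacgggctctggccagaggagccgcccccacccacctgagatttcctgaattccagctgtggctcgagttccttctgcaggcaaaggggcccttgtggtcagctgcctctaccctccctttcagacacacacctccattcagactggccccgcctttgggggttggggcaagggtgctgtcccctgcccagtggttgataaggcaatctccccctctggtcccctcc
Ucma: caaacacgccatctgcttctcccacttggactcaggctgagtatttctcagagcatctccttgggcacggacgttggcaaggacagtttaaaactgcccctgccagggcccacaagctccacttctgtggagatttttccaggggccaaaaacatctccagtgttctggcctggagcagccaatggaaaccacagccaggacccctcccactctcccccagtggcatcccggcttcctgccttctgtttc
Chad: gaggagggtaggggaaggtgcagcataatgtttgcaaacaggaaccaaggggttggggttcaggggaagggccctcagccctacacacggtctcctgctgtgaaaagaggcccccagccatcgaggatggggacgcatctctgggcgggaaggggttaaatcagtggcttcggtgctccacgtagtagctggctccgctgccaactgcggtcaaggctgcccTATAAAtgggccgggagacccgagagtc
RefSeq promoters were at hand for 7 of the 10 genes, and not for Matn2, Scrg1 and Mgp. Only the Chad window held TATAAA, from base -28 to base -23 before the start, and 7.59% of all 32851 promoter windows of the same length held it. None of the 7 genes' windows held ACAAAG or ACAATG on either strand, words that resemble the core site of SOX proteins, whereas 25.2% of all windows held at least 1 of them. These are matches of letters and say nothing about which factors bind.

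Nearly all transcripts of most of these genes came from chondrocyte-like cells. The share of a gene's UMIs found there was between 92.2% and 97.3% in both libraries for Acan, Hapln1, Matn1, Matn3, Ucma, Chad and Scrg1. It was lower for Matn4 (82.7% in wild-type and 82.4% in Bmx-CreER Wls) and for Mgp (75.9% and 83.4%). Matn2 stood apart from the rest, with 13.6% and 23.3% of its UMIs in chondrocyte-like cells. Together the 10 genes took 26179 CPM of the wild-type and 23252 CPM of the Bmx-CreER Wls chondrocyte-like transcriptome.

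**Figure D1:**
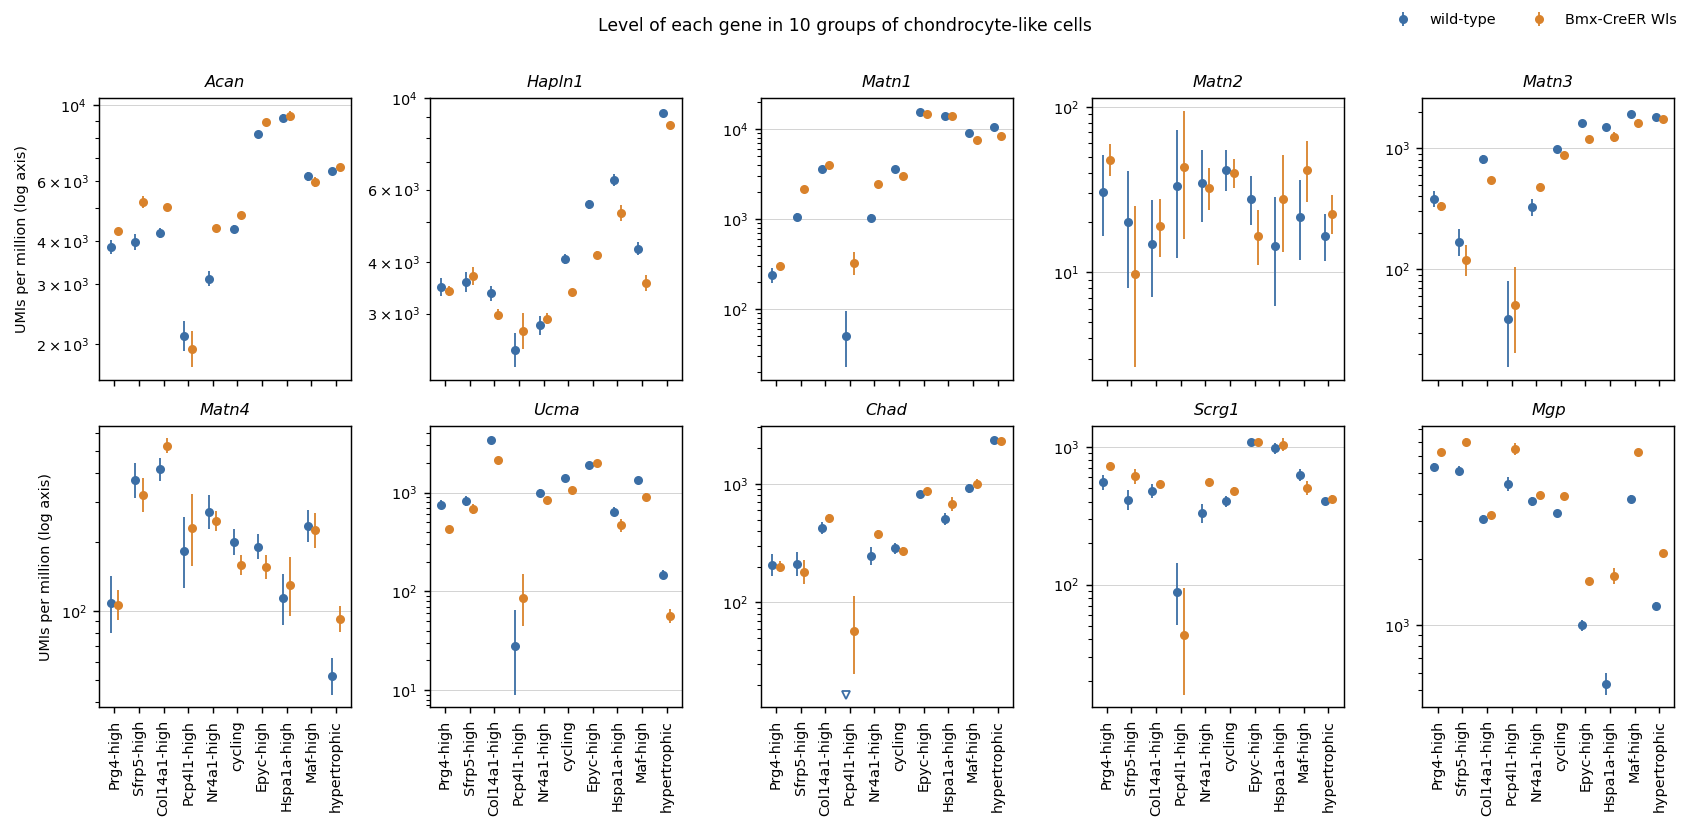
Level of each gene (CPM on a log axis, a separate scale for each gene) in 10 zones of chondrocyte-like cells, wild-type in blue and Bmx-CreER Wls in orange, with 95% counting intervals and an open triangle at the limit that no UMI allows. Chad and Hapln1 peak in the hypertrophic zone, Matn1 and Scrg1 in the Epyc-high zone, and Ucma and Matn4 in the Col14a1-high zone in both libraries.

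Aggrecan and link protein were present in nearly every chondrocyte-like cell. Acan, the aggrecan core protein (chr7:79053483-79115099), stood at 5842 CPM in wild-type and 5774 CPM in Bmx-CreER Wls chondrocyte-like cells. After each cell had been thinned to 1000 UMIs, Acan was found in 95.3% and 96.9% of them. Its level varied 4.35-fold (3.92 to 4.84) over the wild-type zones, from 2115 CPM in Pcp4l1-high to 9197 CPM in Hspa1a-high cells. In the other library the same zones were at the ends, with 1934 and 9304 CPM. Epyc-high cells came next to the top in both, at 8225 and 8925 CPM.

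Hapln1 (chr13:89539796-89611652), which encodes link protein, was highest in the hypertrophic zone, at 9190 CPM in wild-type and 8615 CPM in Bmx-CreER Wls. That was 1.45-fold (1.40 to 1.502) and 1.64-fold (1.56 to 1.72) above the next zone. Its lowest zone, Pcp4l1-high, still held 2448 and 2728 CPM, so Hapln1, like Acan, had no zone in which it was near the level of cells that should lack it.

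The 4 matrilins followed 3 different patterns. Matn1 (chr4:130944385-130955475) and Matn3 (chr12:8947929-8972028), the matrilins best known from cartilage, were high in the columnar to hypertrophic zones and lowest in the Pcp4l1-high, Prg4-high, Sfrp5-high and Nr4a1-high zones of both libraries. Matn1 reached 15542 CPM in wild-type and 14716 CPM in Bmx-CreER Wls Epyc-high cells, and stood at 10596 and 8308 CPM in the hypertrophic zone. In Prg4-high cells it stood at 238 and 304 CPM. Cells that should lack Matn1 gave a wide range of backgrounds: 267 and 217 CPM in endothelial-like cells, 100.2 and 72.3 CPM in HSPC-like (blood progenitor-like) cells and 22.2 CPM in the wild-type cells that the study itself lists as endothelial. The Prg4-high level was not above the first of these in wild-type and was above it in Bmx-CreER Wls, and it was above that of HSPC-like cells in both.

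Matn3 was highest in Maf-high cells of the wild-type library (1913 CPM) and in hypertrophic cells of the other (1750 CPM). The order of these zones was not resolved in wild-type, where the ratio of the first to the second was 1.06 (0.994 to 1.13). Pcp4l1-high cells held the least, 38.9 and 50.5 CPM, against 41.9 and 22.0 CPM in endothelial-like cells and 3.58 CPM in the study's wild-type endothelial list. Sfrp5-high cells came next, at 168 and 120 CPM, below Nr4a1-high (324 and 477 CPM) and Prg4-high cells (382 and 332 CPM).

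Matn4 (chr2:164389393-164405160) had another order of zones. It was highest in Col14a1-high cells, with 417 and 528 CPM, and lowest in hypertrophic cells, with 52.0 and 92.4 CPM, although the Prg4-high zone, low for Matn1 and Matn3 too, was second lowest (108 and 106 CPM). The range was 8.02-fold (6.45 to 10.01) in wild-type and 5.71-fold (4.92 to 6.65) in Bmx-CreER Wls. In wild-type the Sfrp5-high zone, at 374 CPM, was not resolved from the Col14a1-high zone, whose level was 1.12 times as high (0.903 to 1.38). Rbpjl overlaps Matn4 on the opposite strand and gave 24 and 51 UMIs in chondrocyte-like cells, against 1462 and 2534 for Matn4.

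Matn2 (chr15:34306677-34436273), a matrilin known from many connective tissues, was a minor transcript of cartilage cells. It stood at 24.5 CPM (21.2 to 28.1) in wild-type and 29.99 CPM (27.1 to 33.1) in Bmx-CreER Wls chondrocyte-like cells, and no zone exceeded 47.9 CPM. In both libraries the difference between its highest and second zone lay within counting error. It was far higher in other cells. An unnamed Clic5-high cluster held 414 and 512 CPM, stromal (BMSC-like) cells 236 and 279 CPM, and mural-like cells, which wrap blood vessels, 149 and 166 CPM. BMSC-like cells alone gave 54.6% and 38.5% of all Matn2 UMIs. Before thinning, Matn2 was found in 45.4% and 49.6% of BMSC-like cells, against 1.75% and 0.754% of endothelial-like cells of similar depth (medians of 3181 and 3148 UMIs in BMSC-like, 3025 and 3254.5 in endothelial-like cells).

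The Gla proteins Ucma and Mgp were highest in different zones. Ucma (chr2:4976122-4985748), named for upper zone cartilage, was highest in Col14a1-high cells, at 3385 CPM in wild-type and 2138 CPM in Bmx-CreER Wls. Epyc-high cells came next, at 1909 and 1999 CPM. The ratio of the first zone to the second was 1.77 (1.67 to 1.88) in wild-type but only 1.07 (1.02 to 1.12) in Bmx-CreER Wls. Ucma was near its lowest in the hypertrophic zone, at 148 and 56.9 CPM. Endothelial-like cells held 20.4 and 42.7 CPM of Ucma, and the wild-type cells of the study's endothelial list 2.87 CPM.

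Mgp (chr6:136872435-136875823), whose product inhibits mineralisation of cartilage and vessel walls, was high in the Prg4-high, Sfrp5-high and Pcp4l1-high zones. In wild-type it stood at 5329 CPM in Prg4-high and 5133 CPM in Sfrp5-high cells, which were not resolved (ratio 1.04, 0.976 to 1.10). Pcp4l1-high cells followed, at 4463 CPM. In the other library Sfrp5-high cells led with 6968 CPM, followed by Pcp4l1-high cells at 6460 CPM and Prg4-high cells at 6286 CPM. Mgp was lowest in the Hspa1a-high zone (535 CPM) of wild-type and in the Epyc-high zone (1585 CPM) of Bmx-CreER Wls, the pair of zones in which Matn1 was highest and second highest in both libraries.

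Chad (chr11:94565047-94569127), which encodes chondroadherin, a leucine-rich repeat protein that binds collagen and integrins, was the gene most tied to the hypertrophic zone. It stood there at 2358 and 2293 CPM, 2.57-fold (2.36 to 2.80) and 2.28-fold (2.09 to 2.49) above the Maf-high zone, which came second in both. No Chad UMI was found in wild-type Pcp4l1-high cells, which allows up to 16.7 CPM. Acsf2 overlaps Chad on the opposite strand and gave only 86 and 180 UMIs in chondrocyte-like cells, against 8323 and 10558 for Chad.

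Scrg1 (chr8:57455923-57477585), a small secreted protein first found in scrapie-infected brain and later in differentiating chondrocytes, was highest in Epyc-high cells, at 1077 and 1088 CPM. Hspa1a-high cells followed at 973 and 1038 CPM, and the Bmx-CreER Wls values of these zones were not resolved (ratio 1.05, 0.938 to 1.17). Over the 10 genes, 7 had the same highest zone in both libraries, and the exceptions were Matn2, Matn3 and Mgp. The share of all genes that kept their highest zone was not measured, so this count is a description only. Among the 7, the highest zone was not resolved from the next for Matn4 in wild-type and Scrg1 in Bmx-CreER Wls. The count also changed with the processing, as given at the end. The Hspa1a-high zone held 104 and 73 cells and the Pcp4l1-high zone 86 and 56 cells, so values for them rest on few cells.

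The genes were also read cell by cell. Among chondrocyte-like cells thinned to 1000 UMIs (2389 wild-type and 3836 Bmx-CreER Wls cells, with 60 and 129 shallower cells left out), the median cell carried 5 of the 10 genes in both libraries. Matn1 was found in 59.4% and 53.8% of cells, with a variance over cells 9.58 and 10.1 times its mean of 6.45 and 5.004 UMIs. This ratio, which tends to rise with the mean, was 2.57 and 2.31 for Acan (means of 5.33 and 5.52) and 4.63 and 3.92 for Ucma (means of 1.37 and 1.07). Cells with Mgp were poorer in Matn1: it was found in 49.7% of wild-type cells with Mgp and in 87.5% of those without, and in 49.3% and 79.4% in Bmx-CreER Wls. Chad and Matn1 were found together more often, with Chad in 50.2% of wild-type cells with Matn1 and in 15.7% of those without, and in 48.2% and 17.2% in Bmx-CreER Wls. These shares are descriptions of cells from 1 library each and carry no test.

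**Figure D2:**
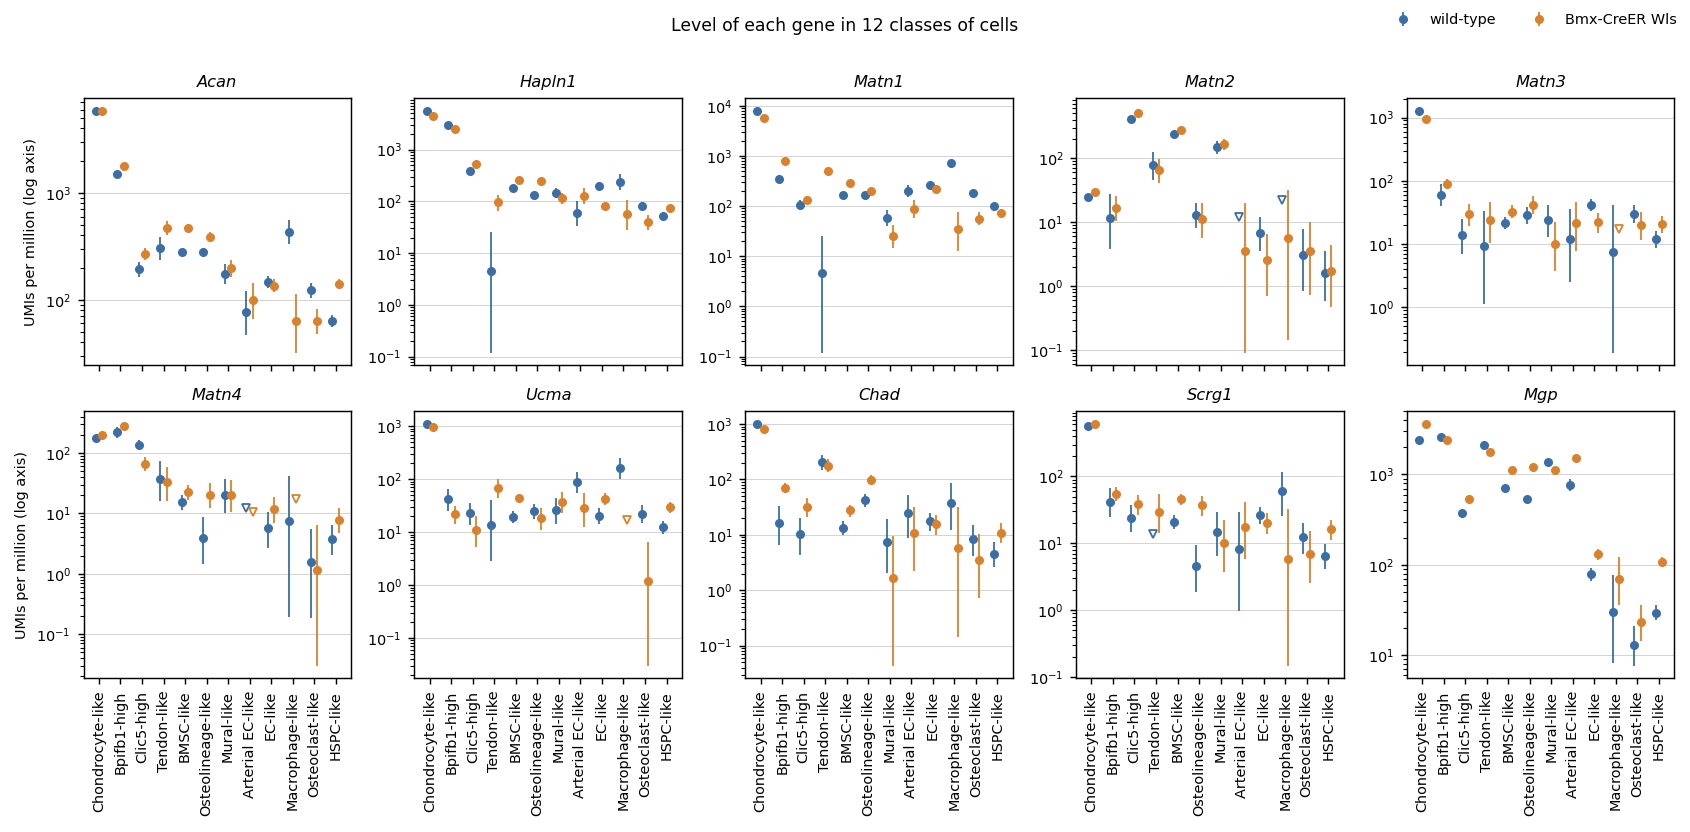
Level of each gene (CPM on a log axis, a separate scale for each gene) in 12 classes of cells, wild-type in blue and Bmx-CreER Wls in orange, with 95% counting intervals and open triangles at the limit that no UMI allows. Matn2 is highest in Clic5-high and BMSC-like cells. Mgp stands above the other genes in arterial endothelial-like, mural-like, tendon-like, BMSC-like and osteolineage-like cells.

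Outside the chondrocyte-like class, a few genes stood well above the low level seen in most other cells. Mgp was found at 2115 CPM in wild-type and 1763 CPM in Bmx-CreER Wls tendon-like cells, and at 1371 and 1108 CPM in mural-like cells. BMSC-like cells held 710 and 1116 CPM of it, and osteolineage-like cells 540 and 1220 CPM. Arterial endothelial-like cells held 766 CPM (661 to 884) and 1524 CPM (1383 to 1675), whereas the other endothelial-like cells held 79.3 and 132 CPM. Mgp was found in 36.8% and 43.3% of the arterial cells and in 8.35% and 10.8% of the other endothelial cells. Chad stood at 203 CPM (147 to 272) and 178 CPM (136 to 230) in tendon-like cells, above its 17.6 and 15.5 CPM in endothelial-like cells.

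A Bpifb1-high cluster of 153 wild-type and 350 Bmx-CreER Wls cells (2.67% and 5.29%) could not be named. It carried 1488 and 1773 CPM of Acan, 3002 and 2514 CPM of Hapln1 and 2629 and 2409 CPM of Mgp, and its Matn4 level, 222 and 281 CPM, was above that of the chondrocyte-like class. Its Matn1 level was only 350 and 777 CPM. The 6 chondrocyte markers together reached 11.7% and 18.2% of their chondrocyte-like level in this cluster. The Clic5-high cluster, 254 and 273 cells, had 135 CPM (111 to 164) and 66.7 CPM (51.0 to 85.7) of Matn4 beside its Matn2.

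Cells of the blood lineage should lack these transcripts and were used to measure stray RNA. In the HSPC-like class (haematopoietic stem and progenitor cells, with erythroid precursors among them), the 10 genes together stood at 286.5 CPM in 501 wild-type cells and 482 CPM in 302 Bmx-CreER Wls cells. This was 1.09% (1.03 to 1.16) and 2.07% (1.95 to 2.20) of the chondrocyte-like level. For single genes it ran from 0.452% (Chad) to 6.60% (Matn2, from 6 UMIs) in wild-type and from 1.25% (Matn1) to 5.84% (Matn2, from 4 UMIs) in Bmx-CreER Wls. The 6 chondrocyte markers, which are not among the 10 genes, stood at 0.876% and 2.10% of their chondrocyte-like level in the same cells.

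**Figure D3:**
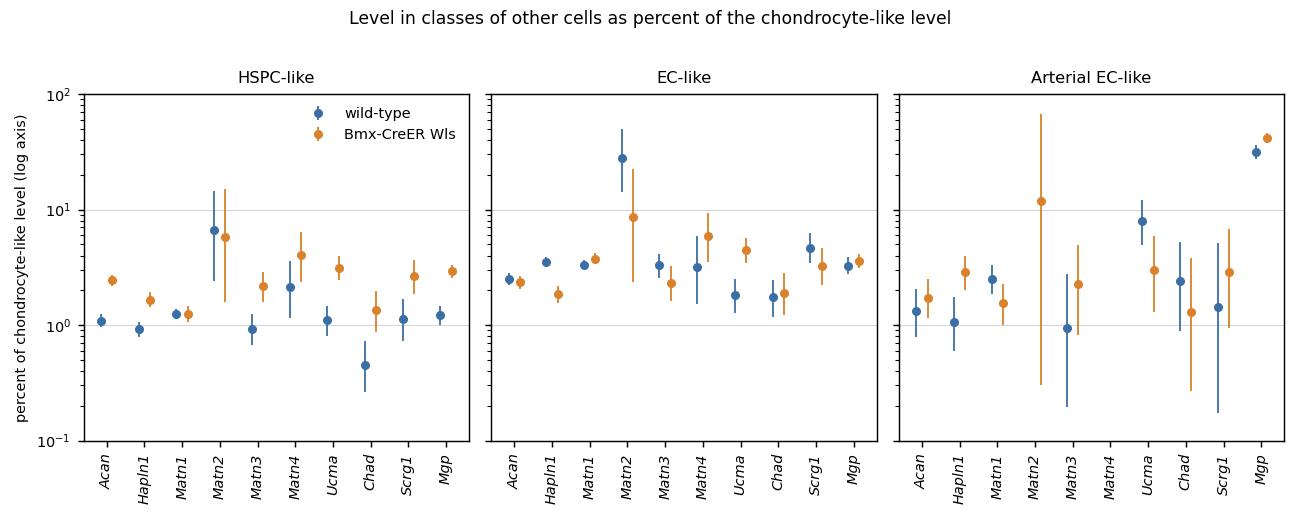
Level of each gene in HSPC-like, endothelial-like and arterial endothelial-like cells as a percent of its chondrocyte-like level (log axis), wild-type in blue and Bmx-CreER Wls in orange, with 95% counting intervals. Genes with no UMI are not drawn. Mgp in arterial cells, at 31.7% and 41.6%, stands apart from the other genes.

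This stray signal was not spread evenly over the HSPC-like cells. Of them, 82.6% in wild-type and 66.9% in Bmx-CreER Wls had no UMI of any of the 10 genes, at medians of 7280 and 7468.5 UMIs per cell. The 5% of cells with most of them, 26 and 16 cells, held 93.9% and 86.8% of the UMIs, with up to 240 and 151 in a cell. When the 5% of cells with the highest doublet scores in each library were left out, the HSPC-like percent became 0.355% and 1.10%. Among wild-type cells that the study's own cell lists place with haematopoietic cells, 544 cells stood at 1.15% (1.08 to 1.22) of the listed chondrocytes, and the multipotent cluster within them, 173 cells, at 0.164% (0.120 to 0.218). Only 59.9% of the 544 and 65.9% of the 173 cells fell in the HSPC-like class, so the list and the class overlap in part. Endothelial-like cells stood at 3.10% and 2.93%, whereas the 435 wild-type cells of the study's endothelial list stood at 0.556% (0.480 to 0.640). In the endothelial-like class the spread over genes, apart from Matn2, ran from 1.73% (Chad, wild-type) to 5.93% (Matn4, Bmx-CreER Wls). Macrophage-like cells, only 47 and 59 in number, stood at 6.48% (5.66 to 7.38) and 1.04% (0.751 to 1.41), but the class differed between libraries, with neutrophil markers summing to 0 CPM in wild-type and 14504 CPM in Bmx-CreER Wls. Osteoclast-like cells stood at 1.83% and 0.942%. Mgp in arterial endothelial-like cells, at 31.7% and 41.6%, was far over these values.

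Between the 2 libraries, the chondrocyte-like level of the 10 genes together was 0.888 times as high in Bmx-CreER Wls as in wild-type (0.883 to 0.893). Matn1, at 8041 and 5773 CPM, had the lowest ratio, 0.718 (0.710 to 0.725). Matn3, at 1278 and 949 CPM, followed with 0.743 (0.724 to 0.762), and Hapln1, at 5691 and 4487 CPM, with 0.788 (0.779 to 0.798). Chad (1014 and 818 CPM) stood at 0.807 (0.784 to 0.831) and Ucma (1123 and 951 CPM) at 0.847 (0.824 to 0.870). Acan was almost level, at 0.988 (0.977 to 0.9999). Scrg1 (569 and 614 CPM) stood at 1.08 (1.04 to 1.12), Matn4 (178 and 196 CPM) at 1.10 (1.03 to 1.18) and Matn2 at 1.22 (1.03 to 1.46).

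Mgp, at 2420 and 3660 CPM, was the only one of the 10 past 1.5-fold, with a ratio of 1.51 (1.49 to 1.54), just past that limit, and the next gene on that side, Matn2, fell short of it at 1.22. Of the 11175 genes with enough UMIs in these cells, 8.27% were past 1.5-fold in either direction, 4.81% higher and 3.45% lower, so 1 of 10 is near the share among all genes. The median ratio of the 10 genes was 0.918, against 1.002 over all genes.

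**Figure D4:**
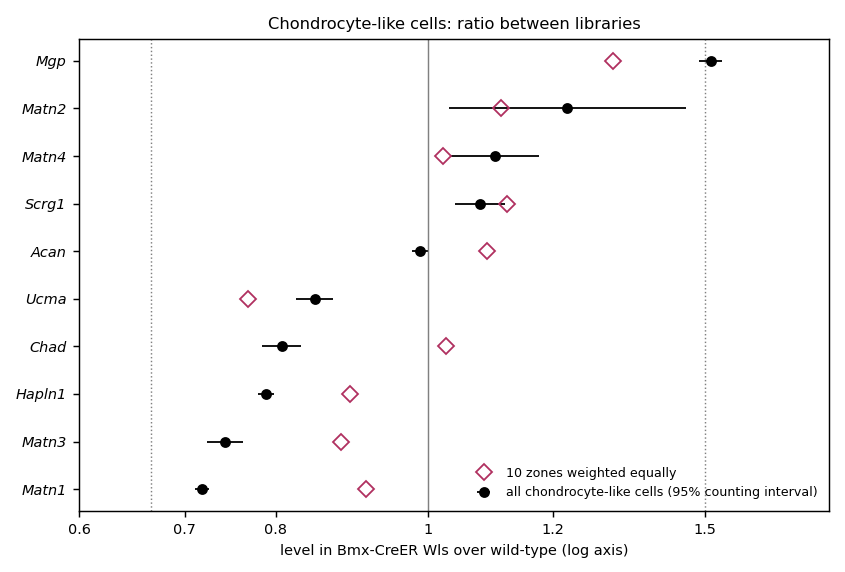
Ratio of each gene's level in Bmx-CreER Wls over wild-type chondrocyte-like cells (log axis). Black points with 95% counting intervals use all cells, and dotted lines mark 1.5-fold in either direction. Open diamonds (legend: 10 zones weighted equally) give each zone the same weight in both libraries, its share of their pooled UMIs. With these weights Ucma, Acan and Scrg1 lie further from 1 and the other genes closer to it.

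Part of these ratios moved with the mixture of zones. Each zone was then given the same weight in both libraries, its share of their pooled UMIs (common zone weights). The ratio of the 10 genes together became 0.994, Matn1 0.913, Matn3 0.880 and Hapln1 0.892. Chad crossed to 1.03 and Acan to 1.09. Mgp became 1.31 and was no longer past 1.5-fold. Ucma (0.768), Acan and Scrg1 (1.12) moved further from 1.

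Within zones, Mgp was higher in the Bmx-CreER Wls library in 10 of 10 zones. Its ratio ran from 1.05 (0.995 to 1.11) in Col14a1-high to 3.14 (2.72 to 3.61) in Hspa1a-high cells, and was 1.76 (1.68 to 1.84) in the hypertrophic and 1.596 (1.49 to 1.71) in the Epyc-high zone, where Mgp was low in wild-type. Outside cartilage, Mgp stood at 2.26 (2.06 to 2.47) in osteolineage-like, 1.99 (1.67 to 2.37) in arterial endothelial-like and 1.57 (1.49 to 1.66) in BMSC-like cells. It was 0.808 (0.726 to 0.899) in mural-like and 0.834 (0.737 to 0.944) in tendon-like cells. In HSPC-like cells, where Mgp counts as stray RNA, the ratio was 3.61 (2.87 to 4.56), from 29.6 to 107 CPM. Most UMIs of the 10 genes in this class lay in 26 wild-type and 16 Bmx-CreER Wls cells. The Mgp ratio may therefore rest on few cells, which its counting interval does not cover. Whether this signal came from free RNA or from mixed cells was not tested. The part of stray RNA in the Mgp ratios of other cells was not tested.

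Ucma was lower in the Bmx-CreER Wls library in 8 of 10 zones. The ratio was 0.632 (0.598 to 0.667) in Col14a1-high cells, where Ucma was highest, 0.564 (0.495 to 0.643) in Prg4-high and 0.385 (0.315 to 0.469) in hypertrophic cells. In Epyc-high cells it was 1.05 (0.995 to 1.10). Matn1 was uneven: it stood at 0.784 (0.770 to 0.799) in the hypertrophic and 0.947 (0.930 to 0.964) in the Epyc-high zone, but at 2.38 (2.17 to 2.62) in Nr4a1-high and 1.998 (1.77 to 2.26) in Sfrp5-high cells, where it was at 1032 and 1067 CPM in wild-type. Matn3 was lower in 8 of 10 zones and Hapln1 in 7, while Acan and Scrg1 were each higher in 8. These counts compare 2 libraries and carry no test.

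Other genes of the same pathway were read from fixed lists, none of them picked for its ratio. Of 13 genes that build and sulphate the chondroitin chains of aggrecan, 9 were higher in chondrocyte-like cells than in all other cells in both libraries (counting interval of the ratio above 1). Over the 13723 genes with enough UMIs, 13.2% were higher by that rule and 54.5% lower. Among the 9 were Papss2, which makes the sulphate donor (604 and 529 CPM), Slc26a2, the sulphate carrier (815 and 644 CPM), and Chst11, a chondroitin sulphotransferase (521 and 357 CPM). None of the 12 with enough UMIs passed 1.5-fold between libraries, against 8.27% of all genes, so few would be looked for among 12. Chst11, at 0.685 (0.657 to 0.715), fell just short of that limit. Of the transcription factors that drive cartilage genes, Sox5 (194 and 203 CPM) and Sox6 (115 and 98.4 CPM) were higher in chondrocyte-like cells in both libraries. Sox9 (1980 and 1930 CPM) was too, but it was among the markers that named the class, so its place there was set by the naming. Of 3 genes of Gla carboxylation, Ggcx and Vkorc1 were higher in chondrocyte-like cells and Vkorc1l1 lower.

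The 4 aggrecan-cleaving proteases, Adamts1, Adamts4, Adamts5 and Mmp13, were all lower in chondrocyte-like cells than elsewhere in both libraries, as were 54.5% of all genes. Adamts1 stood at 88.1 and 56.2 CPM and was, with Mmp13 (7.31 and 3.18 CPM), past 1.5-fold lower in Bmx-CreER Wls, as were 3.45% of all genes. Adamts5 had too few UMIs for that comparison, and Adamts4 was not past 1.5-fold. Of the other lecticans and link proteins, only Vcan and Hapln3 had enough UMIs, and they went opposite ways. Vcan, the versican gene, was lower in chondrocyte-like cells (141 and 151 CPM) than in other cells (481 and 484 CPM). Hapln3 was higher in chondrocyte-like cells (4.99 and 3.41 CPM) than in other cells (0.640 and 1.05 CPM). All 7 other cartilage glycoproteins in the files (Comp, Lect1, Mia, Cytl1, Epyc, Prg4 and Thbs1) were higher in chondrocyte-like cells in both libraries, against 13.2% of all genes, and Epyc, at 1646 and 1001 CPM, was the only one past 1.5-fold, lower in Bmx-CreER Wls (3.45% of all genes).

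Over 41 groups of cells (classes and zones of both libraries, which share their library's depth), the profile of each gene was compared with 11181 genes by Pearson's r on log levels. Acan was most like S100b (0.979) and Col9a2 (0.978), Hapln1 like Fam20b (0.965) and Sox9 (0.964), Matn1 like 3110079O15Rik (0.938), Matn3 like Col9a1 (0.968) and Scrg1 like Papss2 (0.975). Matn2 was most like Cd248 (0.926), a stromal and mural cell surface gene, Matn4 like Fam180a (0.935), Ucma like Susd5 (0.898), Chad like Pcolce2 (0.918) and Mgp like Leprel2 (0.896). Among the 10 genes themselves, Acan and Scrg1 were closest (0.944), and Matn1 and Matn2 were farthest apart (-0.145). Sox9, Col9a1 and Col9a2 were among the markers that named the chondrocyte-like class, so likeness to them was partly set by the naming. The class and its zones also hold the same cells. These values describe likeness across groups and carry no p-value.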

How the data were processed

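The libraries were made from lineage-depleted cells of the E18.5 femur, and each file holds whole-number UMI counts per gene and cell. Per the labels and the study's methods, the authors processed the reads with bcl2fastq 2.19.1.403, UMI-tools 1.0.1, STAR 2.7.1a (mm10) and Subread featureCounts 1.6.4, and deposited the counts without normalization. Whether counting used the strand is not given in the sources used here. Reads shared by near-identical sequences or overlapping genes could therefore shift single genes.

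Cells with 200 to 5000 genes and under 30% mitochondrial UMIs were kept. Both libraries were clustered together with Scanpy 1.11.5 (variable genes without the 10 genes and cell-cycle genes, 11 principal components, 20 neighbours, Leiden resolution 0.5), and chondrocyte-like clusters were clustered again at 0.5. Classes were named from marker lists by a score limit set after the data were seen. Clusters below it (Bpifb1-high, Clic5-high) stayed unnamed, at 2.67% and 4.43% of wild-type cells and 5.29% and 4.12% of Bmx-CreER Wls cells. Scrublet scores were used only in an alternative, and no doublets were removed from the main values.

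Counts were summed per class or zone and library and divided by that group's total. Intervals are 95% exact Poisson limits for levels, Clopper-Pearson limits for shares and conditional binomial limits for ratios, and genes past 1.5-fold were counted where a gene's UMIs in chondrocyte-like cells, the libraries added, came to 50 or more (in all cells, for the comparison with other cells). Where no UMI was seen, 3 counts set the limit. Library scaling by TMM used edgeR 4.0.16. Likeness used groups of at least 50 cells, genes with at least 200 UMIs and a pseudocount of 10 CPM. Gene positions are from GENCODE M21 (GRCm38) and promoters from RefSeq (GRCm38.p6). The genes named are the 10 members, all described, and fixed lists of related genes. The members and lists were chosen with earlier results of these data known. Interval code was tested on simulated counts. Alternatives were other clustering settings, a stricter cell filter, doublet removal, other totals, cell weights and depth.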

Additional observations from a re-analysis of the deposited data

How the results depend on the processing

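No paired analysis was possible because each group had 1 library and no result comes from a test. Against the ratio of 0.888 for the 10 genes together, values beyond its counting interval were 0.873 (30 principal components), 0.958 (each library clustered on its own), 0.879 (total without mitochondrial, haemoglobin and top 20 genes), 0.935 (mean over cells), 0.936 (thinned to 1000 UMIs) and 0.897 (TMM). Of settings chosen after seeing the data, common zone weights gave 0.994, leaving out the Nr4a1-high and Hspa1a-high zones 0.899 and adding the Bpifb1-high cells 0.867. All of these values lie below 1.

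The count of members past 1.5-fold fell from 1 to 0 (Mgp) at clustering resolution 1.0, with the members kept in clustering and with separate clustering. It also fell to 0 with the reduced total, the mean over cells, thinning and common zone weights. In all these settings Mgp stood between 1.31 and 1.5. Mgp stayed above 1 in 11 of 11 alternatives. The ratio of Acan passed 1 with separate clustering (1.08), the mean over cells (1.04), thinning (1.04) and common zone weights (1.09). That of Chad passed 1 with common zone weights (1.03). The other members kept their side of 1 in 11 of 11.

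The number of members with the same highest zone went from 7 to 4 with 30 principal components and with the mean over cells, and otherwise ran from 5 to 9. The HSPC-like percent was 0.355 and 1.10 (wild-type and Bmx-CreER Wls) without the highest doublet scores, 0.851 and 1.63 with the reduced total, 1.68 and 3.26 as a mean over cells and 1.71 and 3.42 after thinning, and 1.25 in Bmx-CreER Wls clustered on its own. No cluster was named HSPC-like at resolution 1.0, with 30 principal components or in the wild-type library on its own, so these gave no value. The causes were not tested. Without replicate libraries, leaving out a replicate could not be done, and depth limits Matn2 most, with 201 and 387 UMIs in chondrocyte-like cells.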
